A study of Homo sapiens with 13 samples.

Results

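Fibroblast growth factor (FGF) signaling was examined through 10 genes, the 6 family ligands FGF2, FGF4, FGF8, FGF13, FGF17 and FGF19 and the 4 receptor tyrosine kinases FGFR1, FGFR2, FGFR3 and FGFR4. They were chosen by gene name, with earlier results of these data known, and all 10 were found among the 61546 features of each count table. The cells were RUES2, an established line of human embryonic stem cells, and every group carried the GFP::SMAD4 fusion, a fluorescent tag on the shared partner of the BMP-activated SMAD proteins. A time series of 7 libraries (a pair at 0 h, and single ones for 4, 12, 20, 28 and 42 h) followed treatment with 100 ng/mL BMP4, 5 µM IWP2, an inhibitor of Wnt secretion, and the ROCK inhibitor RI. A dose response of 6 libraries at 5 h held 5 with that treatment to which LDN-193189 (LDN), which blocks BMP receptors, was added at 0, 10, 30, 100 or 300 nM, and 1 library of cells left untreated in mTeSR medium. The study asked which genes follow the level and the duration of BMP signaling.

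The labels of the 0 h libraries name the BMP4 treatment as well, and these libraries were taken here to hold cells from the start of treatment. The untreated library lacked BMP4 and IWP2, and its label names no RI, so the parts of the treatment cannot be told apart. The time series was made from ribosomal RNA-depleted RNA and the dose response from polyA-selected RNA, with different extraction kits, and tests were run only within each of them. All libraries came from 1 tagged line, in which SMAD4 itself carries the tag. Nothing in the labels says that the 0 h libraries came from separate cultures, so the spread between samples behind the p-values may be technical. In the contrasts of single time points with 0 h, that spread was taken from all genes together and not from each gene.

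FGF ligands bind receptors together with heparan sulfate chains, and the activated receptors signal through the adaptor FRS2 to the RAS and ERK cascade. Human pluripotent stem cells depend on FGF2, which mTeSR medium also supplies, so the RNA of FGF2 is not the only source of the ligand in these cultures. FGF13 belongs to the intracellular members of the family, which are not secreted and act on sodium channels and microtubules, whereas FGF19 is an endocrine-type ligand that uses the Klotho co-receptors.

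Gene counts came to between 37957385 and 71333471 per library in the time series (median 59083013) and between 15600931 and 33989998 in the dose response, with the lowest total in the untreated library. A floor of 3 counts corresponded to 0.0421 to 0.0790 counts per 1000000 (CPM) in the time series and 0.0883 to 0.192 CPM in the dose response. Mitochondrial genes took 7.60% of the counts in 0 h replicate 1 against 2.01% to 4.29% in the rest of the time series, and 7.89% in the untreated library against 4.22% to 4.49% in the other 5 of the dose response. Their part in the results was not tested. The summed level of 9 pluripotency markers went from 8154 and 8610 CPM at 0 h to 3929 CPM at 42 h. Of these, 6 fell, among them SOX2 and NANOG, and 3 did not pass, LIN28A, POU5F1 (1003 and 1721 CPM at 0 h, 1145 CPM at 42 h) and ZFP42 (167 and 190.1 CPM at 0 h, 221 CPM at 42 h). That of 9 amnion markers, among them GATA3 and ISL1, went from 35.4 and 43.2 to 6683 CPM. At 5 h the amnion markers summed to 215 CPM without LDN, 47.2 CPM with 300 nM, and to 38.5 CPM in the untreated library. Of the 4 neural markers OTX2 alone stood above 2 CPM in any library, and it went from 71.8 and 76.3 to 0.686 CPM at 42 h. Of the 4 trophoblast markers SDC1, which is also an FGF co-receptor, alone did so, and it went from 62.5 and 72.5 to 8.51 CPM. The sum of 4 primitive streak markers was between 1.35 and 4.69 CPM and that of 4 definitive endoderm markers between 0.609 and 5.45 CPM over all 13 libraries. Within them EOMES rose at 4 h, from 0.211 and 0.308 to 1.39 CPM (log2 2.28, adjusted p = 0.000471), and FOXA2, not tested, went from 3.19 and 2.92 to 0.154 CPM. Tests needed a mean of 1 CPM, which EOMES reached only through its libraries from 4 to 28 h, so its call is not independent evidence. The part of these markers in the results below was not tested. In bulk RNA, fewer cells of a type and less RNA per cell cannot be told apart. Intervals and floors below are at 95% or 3 counts and cover counting error only.

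Compared per length, in fragments per kilobase and 1000000 fragments (FPKM), FGFR1 was the most abundant of the 10 genes at 0 h with 204 ± 12.5 FPKM (SD, n = 2). FGFR4 followed with 62.3 ± 18.0 FPKM, then FGF2 with 42.3 ± 5.03 and FGFR2 with 40.9 ± 3.15 FPKM, neighbours that did not differ beyond their spread. FGF13 was at 18.4 ± 0.127, FGFR3 at 8.92 ± 1.63, FGF19 at 6.83 ± 0.382, FGF8 at 5.01 ± 0.325, FGF4 at 0.67 ± 0.0424 and FGF17 at 0.035 ± 0.0212 FPKM (SD, n = 2 each). At 42 h the 4 receptors stood first, with 78.4 FPKM for FGFR1, 63.1 for FGFR4, 51.9 for FGFR3 and 37.0 for FGFR2, and the secreted ligands lay between 3.54 FPKM for FGF2 and 0.03 FPKM for FGF4. Thus FGFR3 lay below FGF2 and FGF13 at 0 h, and at 42 h all 4 receptors lay above every ligand.

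FGF2 is the ligand used to hold human stem cells in the pluripotent state. It was at 259 and 223 CPM in the 0 h libraries, and at 220.0, 179, 114, 85.1 and 19.0 CPM in those of 4, 12, 20, 28 and 42 h, the order used for the later libraries below. All later libraries lay below both 0 h libraries, and each was lower than the one before it. Every adjusted p below comes from edgeR (quasi-likelihood test, Benjamini-Hochberg adjustment over all genes tested) unless another tool is named. The edgeR log2 changes use TMM scaling of the libraries (factor 0.867 at 42 h). Ratios in counts use library totals, so they can differ from those changes. FGF2 fell with time by 0.72 per 10 h on the log2 scale (standard error 0.0933, adjusted p = 0.000872). Set against 0 h, the first time point past the threshold of 0.05 was 20 h, with a log2 change of -1.05 (adjusted p = 0.0190), and at 42 h the change was -3.43 (standard error 0.404, adjusted p = 4.3e-16), a ratio of 12.4 in counts (11.7 to 13.2). The gene lies on chromosome 4 (chr4:122826682-122898236, plus strand, GRCh38), and 804 of its exon bases overlap NUDT6 on the other strand, which reached at most 4.36 CPM in any library.

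FGF19 fell over the whole course. Its level was 10.9 and 10.1 CPM at 0 h, followed by 6.02, 2.81, 1.22, 0.829 and, with 20 counts, 0.327 CPM in the later libraries. No later library reached the level of either 0 h library, and every step was downward. FGF19 fell by 1.17 per 10 h on the log2 scale (standard error 0.0964, adjusted p = 0.000117), and the contrast with 0 h passed the threshold from 12 h on, with a change of -1.94 (adjusted p = 5.6e-05) there and of -4.76 (standard error 0.517, adjusted p = 8.2e-19) at 42 h. At 4 h the change of -0.89 did not pass (adjusted p = 0.255). The 42 h level was 31.8-fold lower in counts (20.5 to 52.3).

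FGF8, a ligand of the primitive streak and of early patterning centres, was nearly lost between 4 and 12 h. It had 99 and 204 counts at 0 h (2.61 and 2.86 CPM) and 122 counts at 4 h (2.69 CPM), then 3, 0, 1 and 1 counts in the libraries from 12 to 42 h. The 4 h level differed from 0 h by less than counting error, at a ratio of 0.971 (0.780 to 1.20), and the later 4 libraries were at or under the floor. In counts, FGF8 was 51.6-fold lower at 12 h than in the pooled 0 h libraries (17.5 to 252). At 20 h it was at least 45.3-fold lower, the 95% bound for 0 counts, and at 42 h it was 170-fold lower (30.2 to 6723). FGF8 passed the filter of a mean of 1 CPM only through its 0 h and 4 h libraries. The fitted log2 change at 42 h, -6.99, rests on 1 count and depends on the prior count.

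FGF4, a ligand of the early embryo and a classical target of SOX2 and OCT4 in pluripotent cells, went up before it went down. It was at 1.61 and 1.82 CPM at 0 h (61 and 130 counts), 19.0 CPM at 4 h (862 counts), and then 9.17, 2.87, 0.863 and 0.0817 CPM, the last from 5 counts. The peak lay 10.9-fold above the pooled 0 h level in counts (9.29 to 12.8) and the last library 21.4-fold below it (9.01 to 66.6). FGF4 rose at 4 h by 3.38 on the log2 scale (standard error 0.361, adjusted p = 2.5e-18), was still higher at 12 h with 2.37 (adjusted p = 2.7e-09), was not past the threshold at 20 h (0.77, adjusted p = 0.149) or 28 h (-0.92, adjusted p = 0.118), and fell at 42 h, with -4.13 (standard error 0.617, adjusted p = 2.9e-10). The slope of a straight line over the hours, -1.27 per 10 h, missed the threshold (adjusted p = 0.0803). FGF4 and FGF19 are neighbours on chromosome 11, both on the minus strand (chr11:69771022-69775341 and chr11:69698238-69704022), 66999 bases apart. At 4 h FGF4 was above and FGF19 below its 0 h libraries, and the change of FGF19 did not pass the test there.

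**Figure D1:**
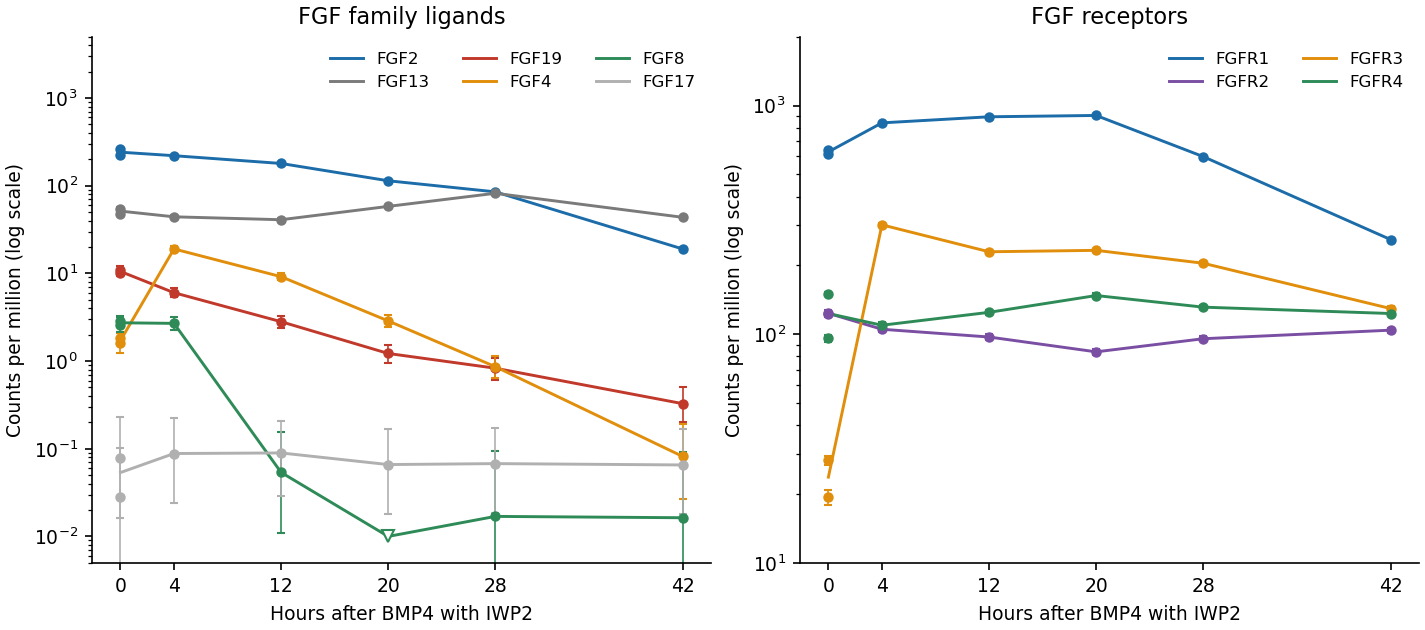
CPM (log scale) against hours of BMP4 with IWP2 for the 6 ligands (left) and the 4 receptors (right). Points are single libraries with 95% Poisson intervals, lines join the mean of the 2 libraries at 0 h with the single later libraries, and the open triangle marks FGF8 at 20 h with 0 counts. FGF4 and FGFR3 stand highest at 4 h, FGF2, FGF19 and FGF8 decline, and FGFR2 and FGFR4 stay within 83.7 to 150.4 CPM.

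For FGF13 the units gave different pictures. The counts gave 55.0 and 47.7 CPM at 0 h and 44.2, 40.9, 58.1, 82.0 and 43.6 CPM later, and only the 20 h and 28 h libraries lay above both 0 h libraries. At 28 h the log2 change was 0.75 (adjusted p = 0.0850) and at 42 h 0.00 (adjusted p = 0.997), and any change over time missed the threshold (adjusted p = 0.0852). In FPKM, by contrast, FGF13 went from 18.5 and 18.3 in the 0 h libraries to 57.0 (28 h) and 29.6 (42 h), so that 42 h was lower than 0 h in CPM and higher in FPKM. The quotient of CPM and FPKM, which gives the effective length in kilobases (kb) that RSEM assigned to a gene from its mix of transcripts, was 2.98 and 2.61 kb at 0 h and then 3.02, 2.19, 1.58, 1.44 and 1.48 kb. It was thus shorter in each library from 12 h on than in any library of 0 h or 4 h. At 28 h the length was 0.516 times that at 0 h, and 0.0974% of the 13348 genes with a length in both had moved as far, whereas the median gene had a log2 change of 0.01.

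The dose response held a smaller shift of the same quotient. FGF13 was at 1.97, 2.17, 2.31, 2.29 and 2.50 kb from 0 to 300 nM LDN, and at 2.26 kb in the untreated library. Its counts ran from 39.1 to 43.6 CPM over the same 5 libraries, against 48.9 CPM in the untreated one. The LDN slope of the counts was -0.02 per dose step (adjusted p = 0.571), while limma on the FPKM values, which carry the length, gave -0.09 on the log2(FPKM + 0.1) scale (adjusted p = 0.0341). No library at 5 h reached the 1.44 to 1.58 kb of the late time points. The length of FGF4 moved too, from 2.81 kb at 0 nM to 2.10 kb at 300 nM LDN. Of 13396 genes, 2.90% had moved as far as FGF4 between these doses and 4.53% as far as FGF13. In the time series FGF4 was at 2.51 and 2.60 kb at 0 h, 1.47 kb at 20 h (174 counts) and 2.88 kb at 28 h (51 counts). These lengths are estimates without replicates after 0 h, and they were examined after the values had been seen.

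FGF13 spans chrX:138614727-139222777 on the minus strand of GRCh38, over 14 merged exons, and FGF13-AS1 on the other strand shares 167 exon bases with it and reached at most 3.97 CPM. Because the effective length depends on which transcripts of a gene are counted, the 250 bases before each of the 2 FGF13 starts in the RefSeq promoter table (GRCh38.p14) are shown. They lie at chrX:139205024-139205273 and chrX:138739354-138739603, with a GC content of 70.4% and 36.4% against a median of 58% over 35116 promoters, and no bases are in capitals because none of the motifs searched occurs in them. The tables give no counts per transcript, so use of either start was not measured.
FGF13 distal start: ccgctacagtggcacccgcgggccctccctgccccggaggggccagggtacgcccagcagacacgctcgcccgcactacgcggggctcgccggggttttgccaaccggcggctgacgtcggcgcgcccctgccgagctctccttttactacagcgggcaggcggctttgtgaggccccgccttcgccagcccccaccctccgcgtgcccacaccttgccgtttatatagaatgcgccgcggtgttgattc
FGF13 proximal start: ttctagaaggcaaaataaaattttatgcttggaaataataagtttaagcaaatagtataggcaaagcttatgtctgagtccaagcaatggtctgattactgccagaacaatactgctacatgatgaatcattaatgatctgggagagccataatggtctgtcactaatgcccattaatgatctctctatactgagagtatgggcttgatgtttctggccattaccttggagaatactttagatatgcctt

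**Figure D2:**
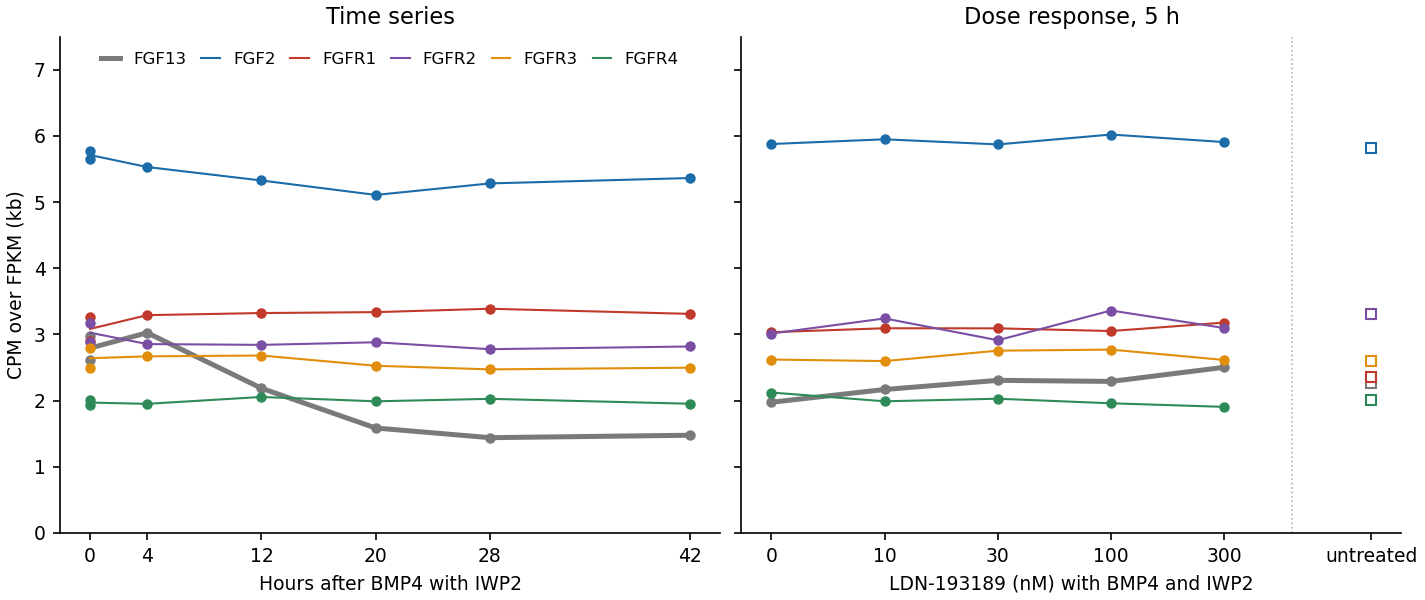
Effective length implied by CPM over FPKM (kb) for FGF13, FGF2 and the 4 receptors, against hours (left) and LDN dose (right, untreated cells as open squares). Points are single libraries and lines join means per time point or single doses. FGF13 drops from 2.98 and 2.61 kb at 0 h to 1.44 kb at 28 h, while FGFR3 stays between 2.47 and 2.79 kb in the time series.

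FGF17, a relative of FGF8, was hardly detected. It had between 2 and 5 counts per library in the time series and between 1 and 3 in the dose response, at most 0.0922 CPM, and did not reach the mean of 1 CPM needed for a test. A change of FGF17 was not detectable at this depth.

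FGFR3 was the receptor that changed most. It was at 19.3 and 28.1 CPM at 0 h and at 301, 229, 233, 204 and 129 CPM in the later libraries. Every library after 0 h lay far above both 0 h libraries, and the highest was the first one taken. The rise came to 3.58 on the log2 scale at 4 h (standard error 0.329, adjusted p = 7.0e-25), a 12.0-fold difference in counts (11.5 to 12.5), and remained at 2.69 (standard error 0.324, adjusted p = 2.5e-15) at 42 h. The slope over the hours was 0.28 per 10 h (adjusted p = 0.543). The 0 h libraries differed by 0.53 on the log2 scale, more than those of FGFR1 (0.05) or FGFR2 (0.02). This difference did not enter the standard errors at 4 h and 42 h, which come from all genes together. FGFR3 lies at chr4:1793293-1808872 on the plus strand. The 2 annotated FGFR3 pseudogenes, which could share its reads, reached at most 0.0527 CPM.

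The sequence before the start of FGFR3 is shown because this gene gave the largest early change among the receptors, beside that of FGFR2, whose RNA stayed near its level. Both are the 250 bases upstream of a RefSeq start (GRCh38.p14), at chr4:1793043-1793292 on the plus strand and chr10:121598445-121598694 on the minus strand, the latter being the first of 5 FGFR2 starts in the table. Capitals mark GGCGCC, a GC-rich element described for BMP-activated SMAD proteins, searched on both strands, which it reads alike. It occurred once in each, 164 and 96 bases before the start, and in 16.4% of all 35116 promoter windows of the same length. The octamer ATGCAAAT of POU factors (1.63% of windows) and the SMAD palindrome GTCTAGAC (0.182% of windows) were in neither. The GC content was 86.8% for FGFR3 and 78.4% for FGFR2. A match is a description of the letters and was not tested for binding.
FGFR3: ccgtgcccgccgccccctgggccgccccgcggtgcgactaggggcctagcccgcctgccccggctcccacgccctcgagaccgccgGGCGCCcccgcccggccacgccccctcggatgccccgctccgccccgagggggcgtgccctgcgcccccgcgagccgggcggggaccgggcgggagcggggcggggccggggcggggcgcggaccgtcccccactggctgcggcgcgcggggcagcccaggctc
FGFR2: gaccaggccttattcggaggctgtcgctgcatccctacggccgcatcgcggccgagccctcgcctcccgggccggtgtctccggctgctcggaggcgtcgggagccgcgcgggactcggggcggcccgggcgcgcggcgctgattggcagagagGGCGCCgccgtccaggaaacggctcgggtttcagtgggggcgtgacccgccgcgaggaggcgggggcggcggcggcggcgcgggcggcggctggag

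FGFR1, the main receptor of pluripotent stem cells, was at 617 and 638 CPM at 0 h, stood at 840.2, 893 and 905 CPM and ended at 598 and 259 CPM. In CPM, libraries from 4 to 20 h were above both 0 h libraries, and those of 28 h and 42 h were below them. With TMM scaling the log2 change at 28 h was 0.000794. The early differences did not pass (log2 0.34 at 4 h, adjusted p = 0.969, and 0.57 at 20 h, adjusted p = 0.275), whereas at 42 h FGFR1 fell, with a log2 change of -1.04 (standard error 0.365, adjusted p = 0.0151). Any change over time passed (adjusted p = 0.00901), and without the 42 h library it did not (adjusted p = 0.778). FGFR1 lies at chr8:38400215-38468834 on the minus strand and overlaps LETM2 on the other strand by 138 exon bases, which reached at most 4.50 CPM.

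FGFR2 and FGFR4 showed no change over time past the threshold (adjusted p = 0.829 and 0.935). FGFR2 was at 122 and 124 CPM at 0 h and between 83.7 CPM (20 h) and 105 CPM (4 h) later. In CPM all later libraries thus lay below both 0 h libraries. With TMM scaling its log2 change was at most -0.52 (20 h) and was -0.00744 at 42 h. FGFR4 was at 95.9 and 150.4 CPM at 0 h and between 109 and 148 CPM later, inside the range of the 0 h pair. The 0 h libraries of FGFR4 differed by 0.65 on the log2 scale, and the one with the lower FGFR4 and FGFR3 was the one with the larger mitochondrial share. Whether this share moved them was not tested. FGFR2 lies at chr10:121478332-121598458 (minus strand) and FGFR4 at chr5:177086905-177098144 (plus strand).

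The makeup of the receptor RNA shifted toward FGFR3. This receptor made up 2.51% and 3.11% of the summed receptor FPKM at 0 h, and 24.5%, 19.0%, 19.7%, 23.1% and 22.5% later. FGFR1 made up 68.9% and 60.4% at 0 h and 34.0% at 42 h, and the share of FGFR4 went from 16.1% and 23.2% to 27.4%. The sum itself was 309 and 323 FPKM at 0 h, was highest with 467 FPKM at 20 h and ended at 230 FPKM. Hence the single 42 h library held a more even mix of the 4 receptors at a lower summed level. At 28 h the sum was 358 FPKM, still above both 0 h libraries. These FPKM values carry no TMM scaling. In the dose response the share of FGFR3 was 23.2% without LDN, 9.62% at 300 nM and 2.08% in untreated cells.

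**Figure D3:**
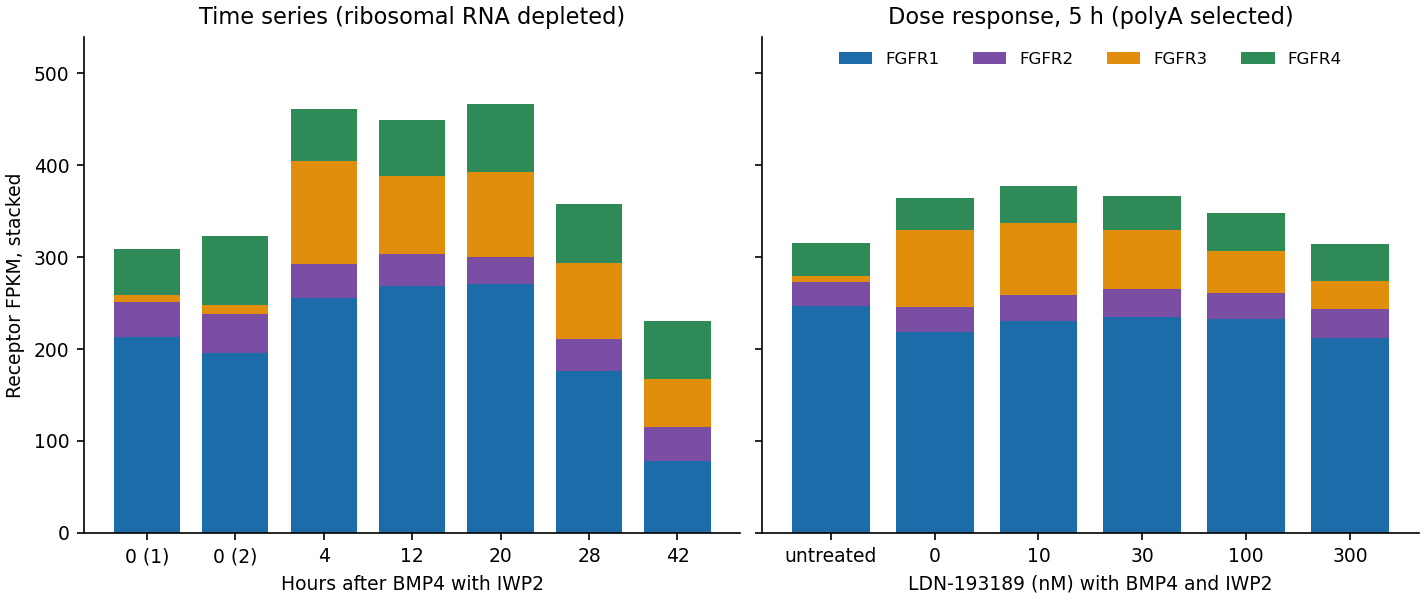
FPKM of the 4 receptors stacked for each library of the time series (left, 0 h replicates in parentheses) and of the dose response (right). The FGFR3 segment grows from 2.51% and 3.11% of the bar at 0 h to 24.5% at 4 h, and shrinks from 23.2% without LDN to 9.62% at 300 nM.

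Over the 10 genes, 9 passed the filter of a mean of 1 CPM in the time series, with FGF17 left out. FGFR3 and FGF4 rose at 4 h and none fell, where 4.39% of the 15976 genes tested rose and 0.632% fell (5.02% in all). At 42 h, 5 of the 9 fell (FGF2, FGF4, FGF8, FGF19 and FGFR1) and 1 rose (FGFR3), against 17.8% lower and 19.9% higher (37.7% in all) among all genes tested. A linear trend was found for 3, all downward, with 17.5% of all genes lower and 19.2% higher (36.7% in all). Any change over time passed for 6 of the 9 and for 34.9% of all genes tested. The median log2 change of the 9 was -0.22 at 4 h and -1.04 at 42 h, and that of all genes -0.01 at both. On library totals the median of all genes at 42 h was -0.25, and the 2851 lower and 3173 higher genes at 42 h became 3963 and 2415, while the trend had 4069 lower and 2121 higher genes in place of 2793 and 3072. The calls of the named members at 42 h were the same under that scaling. FGF8 passed the filter only through the libraries where it was high, so its place among the 5 lower genes and the 3 downward trends is not independent evidence. The factor fit rests on 1 residual degree of freedom, from the 0 h pair, and the single later libraries are assumed to vary like that pair. In this fit the variance was taken wholly from the trend across genes. The 0 h spread of a single gene therefore did not enter its p-value.

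The dose response asked which of these genes follow the strength of BMP receptor signaling at 5 h. FGFR3 was at 222 CPM without LDN and at 206, 175, 128 and 79.0 CPM with 10, 30, 100 and 300 nM, while the untreated library held 17.0 CPM. FGF4 was at 15.0, 13.7, 12.3, 7.40 and 4.10 CPM over the same doses and at 0.961 CPM (15 counts) in untreated cells. Both went down at every step and stayed above the untreated library at the highest dose, FGFR3 by a factor of 4.65 (4.09 to 5.29) and FGF4 by 4.27 (2.50 to 7.83) in counts. FGFR3 fell by 0.35 per dose step on the log2 scale (standard error 0.0373, adjusted p = 2.5e-05) and FGF4 by 0.43 (standard error 0.0594, adjusted p = 0.000246). Against untreated cells, in a fit that takes the line at 0 nM, FGFR3 was higher by 3.81 (standard error 0.221, adjusted p = 8.9e-08) and FGF4 by 4.11 (standard error 0.417, adjusted p = 8.0e-06). The steps were not equal, and most of the decline of both genes lay between 30 and 300 nM.

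FGF19 ran the other way. It was at 5.98, 7.56, 7.47, 8.78 and 9.83 CPM from 0 to 300 nM LDN, while the untreated library held 17.4 CPM. All 5 treated libraries lay below the untreated one, and the highest dose came nearest, at 0.566 times its level in counts (0.480 to 0.668). FGF19 rose with LDN by 0.17 per dose step (standard error 0.0340, adjusted p = 0.00403) and was lower than in untreated cells by a log2 change of -1.55 (standard error 0.134, adjusted p = 2.2e-06). Without the 0 nM library the dose trend had an adjusted p of 0.0614.

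FGF8 was scarce at 5 h and did not pass the filter of a mean of 1 CPM. It had 5, 4, 5, 18 and 25 counts with rising LDN (0.174, 0.118, 0.154, 0.579 and 0.754 CPM) and 28 counts (1.79 CPM) in untreated cells. The 2 highest doses lay above the 3 lowest and below the untreated library. In counts, 300 nM was 4.34-fold above 0 nM (1.63 to 14.5), and 0 nM was at 0.0969 of the untreated level (0.0292 to 0.254). With every gene kept, the LDN slope was 0.71 (standard error 0.186, adjusted p = 0.00656) and the change against untreated cells -4.17 (standard error 0.630, adjusted p = 6.5e-07). In the time series the 4 h library still held FGF8 at 2.69 CPM, near its 0 h level, while the 5 h library without LDN held 0.174 CPM. These values come from different preparations and the difference was not tested.

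FGFR2 moved little but steadily. It was at 80.7, 88.9, 91.1, 95.5 and 99.9 CPM in the order of the doses, with 89.0 CPM in the untreated library. It rose by 0.07 per dose step (standard error 0.0120, adjusted p = 0.000739), 1.24-fold from 0 to 300 nM in counts (1.17 to 1.31), and in FPKM, where limma was used, the slope of 0.06 missed the threshold (adjusted p = 0.185). The untreated library lay inside the range of the treated ones. The fitted change against untreated cells was -0.19 (standard error 0.0530, adjusted p = 0.0112), and it did not pass on library totals (-0.11, adjusted p = 0.104) or without the 0 nM library (-0.14, adjusted p = 0.0516).

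The remaining 4 genes had no dose trend past the threshold. FGF2 lay between 182 and 201 CPM over the 5 doses, with 166 CPM in untreated cells (slope -0.02, adjusted p = 0.214). Without the 0 nM library its slope was -0.05 (adjusted p = 0.0257). FGFR1 lay between 664 and 725 CPM, with 582 CPM in untreated cells (slope 0.01, adjusted p = 0.792). FGFR4 lay between 73.4 and 80.1 CPM, with 70.8 CPM in untreated cells (slope 0.02, adjusted p = 0.504), and did not differ from it past the threshold (log2 0.01, adjusted p = 0.926). FGF13 is described above. These were small differences beside those of FGFR3 and FGF4.

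Against untreated cells, FGF2 was higher by 0.20 (adjusted p = 0.00939), FGF13 lower with -0.28 (adjusted p = 0.00760) and FGFR1 higher by 0.18 (adjusted p = 0.0242). The call for FGFR1 was lost with DESeq2 (adjusted p = 0.136), without the 10 nM library (adjusted p = 0.0653) and without the 100 nM library (adjusted p = 0.0549). FGFR1 also had an implied length of 2.36 kb in the untreated library and of 3.03 to 3.18 kb in the treated ones, so that in FPKM the untreated library was the higher, with 247 against 219 FPKM without LDN. Thus its direction against untreated cells depended on the unit. Of 12895 genes, 9.95% had moved as far in length as FGFR1 between the untreated and the 0 nM library. In the time series the 0 h libraries of FGFR1 were at 2.90 and 3.27 kb.

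**Figure D4:**
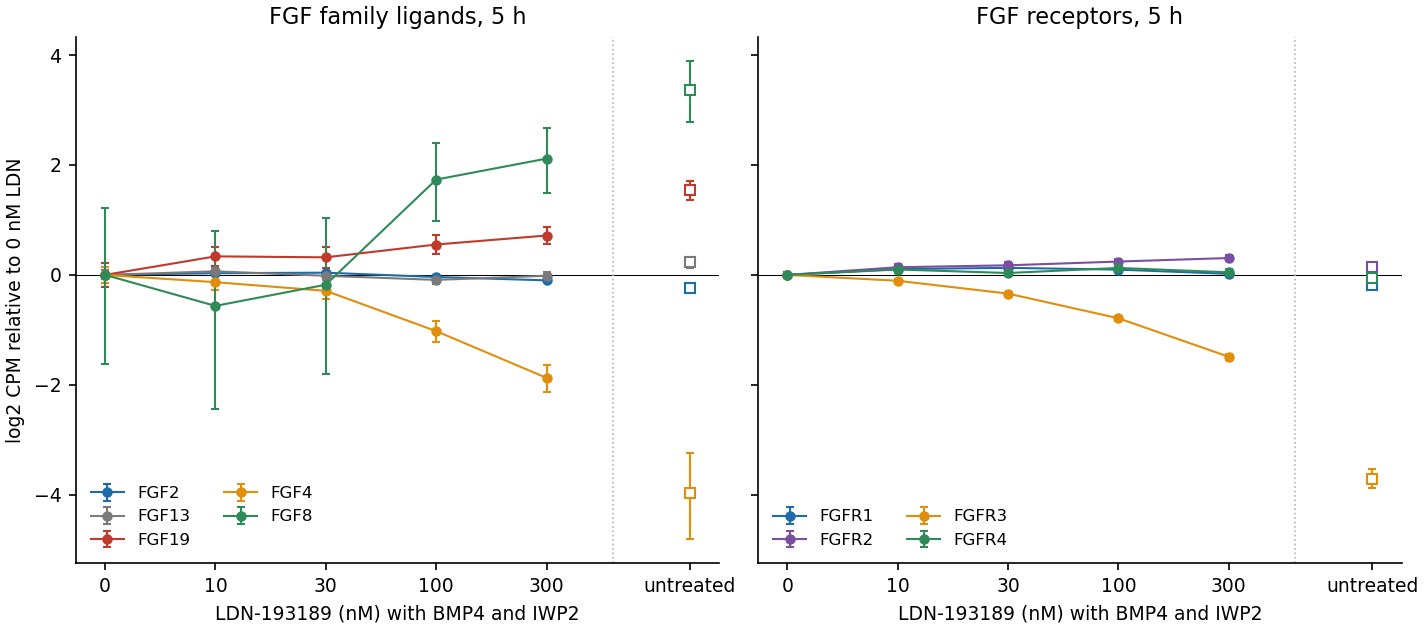
log2 ratio of CPM to the library without LDN for the ligands (left) and receptors (right) over LDN dose at 5 h, with untreated cells as open squares. Points are single libraries and bars 95% Poisson intervals of each library. FGFR3 and FGF4 decline with dose, FGF19 and FGF8 lie higher at 300 nM, and the other genes stay near 0. FGF17 is not drawn.

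Of the 10 genes, 8 could be tested at 5 h, with FGF8 and FGF17 under the filter. The dose trend was downward for 2 (FGFR3 and FGF4) and upward for 2 (FGF19 and FGFR2), where 10.9% of the 14907 genes tested went down and 10.4% up (21.3% in all). Against untreated cells 3 were lower and 4 higher, and of 14877 genes 22.0% were lower and 23.0% higher (45.0% in all), so a call in this comparison was common. On library totals, 2409 genes were lower and 4475 higher in place of 3276 and 3418. The median log2 slope of the 8 was -0.00, as for all genes, and the median change against untreated cells was 0.09, beside 0.02 for all genes and 0.10 for all genes on library totals. Both comparisons use the same 5 treated libraries.

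**Figure D5:**
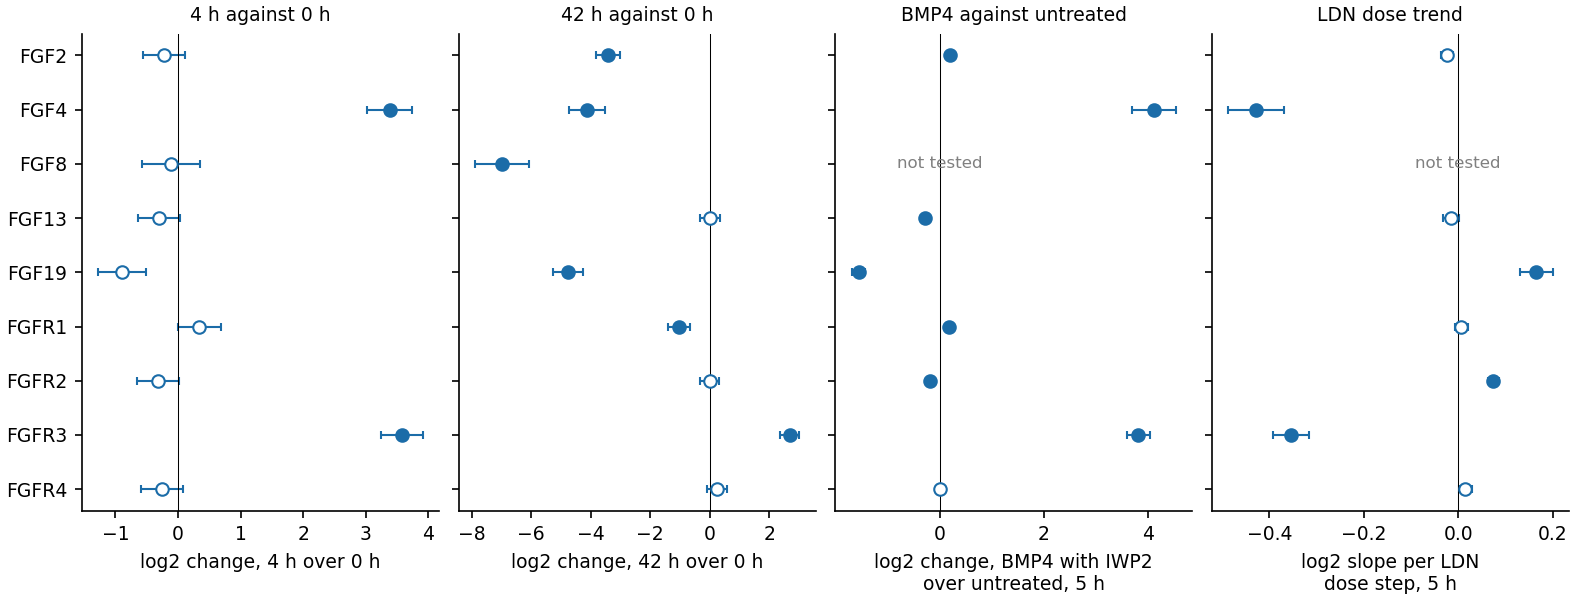
log2 change or slope with its standard error for the 9 genes tested in the time series, in 4 comparisons (edgeR). Filled circles have an adjusted p under 0.05, and FGF8 was not tested at 5 h in these fits. FGFR3 and FGF4 are the 2 genes with changes of over 3 at 4 h and against untreated cells, and both have negative dose slopes.

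The genes with a profile most like that of FGF4 over the 13 libraries, by Pearson correlation of log2(CPM + 0.5) centred within each experiment among the 9581 genes whose mean reached 10 CPM in both experiments, included CLTCL1 (0.979) and SPG7 (0.965). The correlation compares the shape of profiles and not the size of changes, which were smaller than in FGF4. CLTCL1 had a mean of 17.6 CPM at 0 h, 29.6 CPM at 4 h and 11.4 CPM at 42 h, and SPG7 had 140, 194 and 121 CPM. The genes nearest to FGFR3 were PLEKHH3 (0.981), SOCS2 (0.977), a feedback inhibitor of cytokine signaling, and HABP4 (0.974). PLEKHH3 had a mean of 16.4 CPM at 0 h, 68.6 CPM at 4 h and 43.4 CPM in the last library, and SOCS2 had 15.2, 69.4 and 57.4 CPM. The libraries are shared by all genes and the values are descriptions.

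The rest of the FGF system was followed through lists of other ligands, co-receptors, heparan sulfate enzymes, adaptors and ERK feedback genes. Of 16 other FGF ligands, 9 stayed under 1 CPM in every library and 3 could be tested. FGF11 and FGF12, relatives of FGF13, are also held inside the cell. FGF11 fell from 14.0 and 11.4 CPM at 0 h to 5.51 CPM in the last library (-0.97, adjusted p = 0.0114), while FGF12, with 10.4 and 8.51 CPM at 0 h and 4.89 CPM in the last library, did not pass (-0.71, adjusted p = 0.0810). With LDN, FGF12 fell by 0.11 per step (adjusted p = 0.0490). FGF22 reached at most 3.08 CPM and passed no test. None of the 3 passed against untreated cells or at 4 h.

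Among 15 co-receptors and FGF-binding proteins tested, 5 fell and 5 rose at 42 h, where 37.7% of all genes tested changed, with a median log2 change of -0.33 against -0.01 for all genes. FLRT3, a membrane protein that binds FGF receptors, rose by 5.38 at 42 h, to 23.4 CPM from a 0 h level of 0.670 ± 0.0954 CPM (SD, n = 2; adjusted p = 2.3e-41). It stood between 0.603 and 1.04 CPM up to 20 h and passed the filter of a mean of 1 CPM only through its 28 h and 42 h libraries. Its p-value and its place among the 5 that rose are therefore not independent evidence. FGFBP3, a secreted FGF carrier, fell from 319 ± 51.3 to 22.5 CPM (-3.59, adjusted p = 3.8e-17), and ANOS1, an extracellular modulator of FGFR1, from 275 ± 20.9 to 26.3 CPM (-3.15, adjusted p = 3.0e-14). FLRT1 was the 1 of 15 past the threshold at 4 h (5.02% of all genes), where it rose from 2.65 ± 0.344 to 10.9 CPM (1.95, adjusted p = 3.7e-06). At 5 h, 6 of 13 rose and 3 fell with LDN (21.3% of all genes changed), among them ANOS1 (0.22 per step, adjusted p = 8.6e-08), the heparan sulfate carrier SDC1 (0.20, adjusted p = 3.0e-06) and FLRT1 (-0.27, adjusted p = 0.0104). The others past the threshold at 42 h were FGFRL1, FLRT2 and SDC1 downward and GPC1, SDC2, SDC3 and SDC4 upward. Against untreated cells 5 of the 13 were lower and 3 higher, beside 45.0% of all genes called.

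Of 13 enzymes that build or edit heparan sulfate, 4 fell (GLCE, HS3ST3B1, EXTL2 and EXTL3) and 3 rose (HS6ST1, NDST1 and SULF2) at 42 h (37.7% of all genes changed), with a median of 0.34. GLCE, the epimerase, was at 21.8 ± 1.05 CPM at 0 h (SD, n = 2), 9.20 at 4 h and 5.28 at 42 h, and fell at both (-1.32, adjusted p = 0.00219, and -1.81, adjusted p = 1.0e-06). HS6ST1, a sulfotransferase, rose from 174 ± 44.9 to 417 CPM at 42 h (1.50, adjusted p = 3.1e-05). HS3ST3B1 rose at 4 h from 12.9 ± 1.02 to 27.0 CPM (0.98, adjusted p = 0.0266) and fell to 4.89 CPM at 42 h (-1.17, adjusted p = 0.00212). The LDN trend passed for 3 of the 13, a share near the 21.3% of all genes, HS3ST3B1 downward (-0.28, adjusted p = 7.0e-05) and GLCE (0.20, adjusted p = 0.00122) and HS6ST2 (0.12, adjusted p = 0.00530) upward. Against untreated cells 5 were lower and 2 higher, where 45.0% of all genes were called.

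Of 21 adaptors and kinases between receptor and ERK, 0 passed edgeR at 4 h (5.02% of all genes), 1 had an unadjusted p under 0.05 there (SOS2), and 1 fell (CBL) and 5 rose (GAB2, FRS3, SOS2, GAB1 and MAPK3) at 42 h (37.7% of all genes), with a median of 0.30. GAB2, a docking adaptor, rose to 167 CPM in the last library, from 10.8 ± 1.08 CPM (SD, n = 2), a change of 4.19 (adjusted p = 1.0e-36), against 1.01 for FRS3 (adjusted p = 0.0135) and -0.94 for CBL (adjusted p = 0.0218). With LDN 1 fell and 4 rose, a share near the 21.3% of all genes, SOS2 with a slope of -0.12 (adjusted p = 0.00197), GRB2 with 0.07 (adjusted p = 0.00332) and HRAS with 0.06 (adjusted p = 0.0398). Against untreated cells 7 were lower and 1, SOS2, was higher, again near the share of all genes (45.0%).

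Of the 16 ERK feedback and target genes, 14 passed the test of any change over time, against 34.9% of all genes tested. At 4 h 1 rose (FOS, 1.01, adjusted p = 0.0210), where 5.02% of all genes changed. At 42 h, 6 fell and 4 rose, against 37.7% of all genes, with a median of -0.38. DUSP5, an ERK phosphatase of the nucleus, rose from 12.0 ± 0.105 to 96.7 CPM (3.24, adjusted p = 3.9e-24), and the transcription factors ETV4 (-2.50, adjusted p = 5.7e-10) and ETV1 (-2.28, adjusted p = 7.4e-09) fell. With LDN 4 fell and 4 rose, against 21.3% of all genes. SHISA2, which holds back FGF receptors on their way to the surface, rose by 0.33 per step (adjusted p = 3.8e-06) and DUSP6, an ERK phosphatase, by 0.13 (adjusted p = 6.4e-05), while SPRY4, an inhibitor of receptor tyrosine kinase signaling, fell by 0.09 (adjusted p = 4.0e-05). Against untreated cells 8 were lower and 2, SPRY2 and DUSP4, were higher, against 45.0% of all genes. In both experiments, then, the list held genes that rose and genes that fell. The genes of these lists that are named without a value, and FOS, were picked after their values were seen.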

How the data were processed

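Bulk RNA-seq was analysed from 13 libraries. Per the labels and the study's methods, the authors trimmed reads with Cutadapt, aligned them to GRCh38 (ENSEMBL, release not given in the sources used here) with STAR 2.7.8a and quantified genes with RSEM 1.3.3. They deposited expected counts, whole numbers as deposited, and FPKM values. Strand handling is not stated, so reads of a gene and its antisense partner cannot be told apart. RSEM divides reads that fit several genes, so counts of genes with near copies are estimates.

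The 10 members and all gene lists were chosen with earlier results of these data known. CPM values were counts per 1000000 of each library's total. Tests used edgeR 4.0.16 (quasi-likelihood, TMM scaling, mean of at least 1 CPM, Benjamini-Hochberg over all genes tested, threshold 0.05) in R 4.3.3. The time series was fitted with hour as a number (slope per 10 h) and as a factor, and the dose response with the dose step 0 to 4 for 0, 10, 30, 100 and 300 nM, since the SMAD4 level of each dose that the study used is not in the tables used here. The untreated library entered a fit with treatment and dose step. As a single library it added nothing to the error and is assumed to vary like the treated ones. Scatter about the line is the error where no group has a replicate. On simulated counts with 200 genes changed by up to 2 on the log2 scale, 200 were found for 42 h against 0 h with 10 false calls, and 199 for the LDN dose trend with 6 false calls. In the fits to the data, the common coefficient of variation between libraries was 0.187 with hour as a factor and 0.0343 for the LDN dose trend. Recovery at these spreads was not tested. Count intervals were exact Poisson or conditional binomial ones at 95%. They cover counting error only.

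Named genes beyond the members were other FGF ligands whose mean reached 1 CPM, the 3 largest changes past the test at 42 h and with LDN in each list, genes that overlap a member, and the 3 genes most like the ligand and the receptor with the largest range over time. Some of these genes are not reported here. Alternatives were RLE scaling, library totals, no filter, DESeq2 1.42.0, dose in nM, order of the time points, limma 3.58.1 on log2(FPKM + 0.1) and log2(FPKM + 1), and each library left out. Lengths (CPM over FPKM) needed 20 counts, and in the comparison with all genes 1 FPKM. Positions are from GENCODE for GRCh38, and promoters from RefSeq, where FGF4, FGF8 and FGF19 had no entry. Figures were drawn with matplotlib 3.10.9 in Python 3.11.15.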

Additional observations from a re-analysis of the deposited data

Results flagged for a closer look

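FGF2 stood on opposite sides of its reference libraries in the early contrasts of the experiments. Its log2 ratio of CPM at 4 h was -0.24 against 0 h replicate 1 and -0.0213 against 0 h replicate 2, where the counting intervals overlap, and edgeR found no change past the threshold (log2 -0.22, adjusted p = 0.999). At 5 h without LDN the ratio was 0.24 against untreated cells. The experiments differ in RNA selection, extraction kit and reference cells, which cannot be told apart, and the difference was not tested.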

How the results depend on the processing

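Of the alternative values for single members, 404 kept direction and side of the threshold, 11 lost and 8 gained a call, and 20 changed sign. FGFR3 and FGF4 kept their calls at 4 h, at 42 h, over LDN dose and against untreated cells in every alternative run for them. The LDN trend of FGF19 was lost with dose in nM (adjusted p = 0.132) and without the 0 nM library (adjusted p = 0.0614), and that of FGFR2 with dose in nM (adjusted p = 0.144) and in limma on FPKM (adjusted p = 0.185 and 0.186). The time trend of FGF4 passed with DESeq2 (adjusted p = 0.00204) and without either 0 h library (adjusted p = 0.0397 and 0.0342), that of FGFR4 without 0 h replicate 2 (adjusted p = 0.0407), and any change of FGF13 without the 20 h library (adjusted p = 0.0478). The causes were not tested.

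Genes past the threshold at 4 h (101 lower, 701 higher) numbered 168 lower with no filter, and 59 lower and 396 higher with DESeq2. The LDN trend (1624 lower, 1556 higher) gave 312 lower and 79 higher with dose in nM, 692 and 415 with limma on log2(FPKM + 0.1), and 691 and 415 on log2(FPKM + 1), with 0, 1 and 1 members higher in place of 2. Leaving out 1 library at a time gave 1386 to 3166 genes lower and 1871 to 3436 higher for the time trend, 3334 to 5814 for any change, 1104 to 1551 lower and 874 to 1423 higher for LDN, and 3001 to 3241 lower and 3118 to 3411 higher against untreated cells. The lowest time series counts came without the 42 h library, and for LDN without the 0 nM library, while 300 nM left out gave 994 higher. Members then numbered 2 to 3 lower and 0 to 1 higher (time trend), 5 to 7 (any change), 2 to 3 lower and 1 to 2 higher (LDN), and 2 to 3 lower and 3 to 4 higher (untreated).

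Sign changes were confined, among the members and alternatives run, to values that missed the threshold. In the time trend FGFR1 ranged from -0.25 to 0.0684 with 1 library left out, positive without the 42 h library, and FGFR2 from -0.12 to 0.0150, positive without either 0 h library or the 28 h library, and 0.0123 with no filter. At 42 h FGF13 became -0.00818 with RLE scaling, -0.23 on library totals and -0.0082 with DESeq2, FGFR2 0.0819 with no filter, and FGFR4 -0.000308 on library totals. The LDN slope of FGFR1 became -0.0145 with dose in nM and -0.00853 and -0.00850 in the limma fits, and ranged from -0.0282 (without 0 nM) to 0.0362 (without 300 nM). That of FGFR4 ranged from -0.00544 to 0.0364 between the same omissions. Against untreated cells FGFR4 became -0.00363 with RLE scaling and -0.0043 with DESeq2, and ranged from -0.0213 (without 10 nM) to 0.0709 (without 0 nM).

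No paired analysis was possible because only the titles at 0 h carry replicate numbers. Without a 0 h library the factor fit has no residual degree of freedom, so it was not run. Depth limits FGF8 after 4 h and FGF17 in every library, where counts were at or near 3.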
